A study of Bos taurus with 18 samples.

Results

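The largest run of tested CpGs on chromosome 3 lies between positions 82708009 and 82911078 of the bovine genome build bosTau8. Its members are all CpGs of the deposited table in that span, which is a run with no gap of over 10 kb between neighbours. It holds 988 of the 31500 tested CpGs, or 3.14%, and 35.6% of the 2778 tested CpGs of chromosome 3. Of the 612 such runs in the table it is the largest, and the next largest, on chromosome 29, holds 730 CpGs.

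The levels come from reduced representation bisulfite sequencing (RRBS) of EBTr, an established bovine fibroblast line of embryonic tracheal origin. There were 3 libraries for each of 6 treatments, 18 in all. Low cells were kept in 1 g/L glucose and High cells in 4.5 g/L, each in Control medium or with epigenetic modifiers (EM) raised to ×2.5 or ×5. The EM were methionine, choline, vitamin B12 and folate. The labels give all 4 EM at 2.5 and 5 times the Control medium, whereas the study's methods give methionine at 2 times in all supplemented media, and these differ. All cells came from 1 line. The labels number the libraries of a treatment 1 to 3, and the methods describe them as 3 tubes of cells, which are not stated to be separate cultures. The p-values then measure the spread between these tubes, which may be technical.

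In mammalian fibroblasts, most CpGs outside CpG islands carry methyl groups on the majority of DNA molecules. The methyl groups come from S-adenosylmethionine, which is made from methionine, and folate, choline and vitamin B12 serve to regenerate methionine. RRBS reads the fragments that a restriction enzyme cuts out at its recognition sites, so that tested CpGs come in dense groups with untested DNA between them. The gene that the study's tables name as closest to the listed CpGs of the region was ALG6, which encodes a glucosyltransferase of N-glycan assembly. In the RefSeq gene order of another build (ARS-UCD2.0), ITGB3BP and EFCAB7 are the next protein-coding genes on one side of ALG6 and FOXD3 and ATG4C on the other. FOXD3 encodes a forkhead transcription factor and ATG4C a protease of autophagy. Whether a CpG of the region lies in an exon, an intron or between genes was not analysed here.

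Each value is an M-value, the ratio of methylated to unmethylated reads on the log2 scale, and the level in percent is the share that this ratio implies. The number of reads was not given beside a value, so that no counting interval is given. The study kept only CpGs with at least 10 reads in every library. Some levels equal fractions of small numbers, as few reads would give. Examples are 78.6% and 82.4% in Low Control replicates 2 and 3 at position 82849190. The depth of single values was not worked out. The mean level of the region was between 67.7% and 71.4% in the 18 libraries, and that of the other 30512 CpGs was between 67.2% and 70.0%. The region was above the rest in 17 of 18 libraries, with differences of -0.14 to 1.47 percentage points. The other tested CpGs of chromosome 3 had means of 57.9% to 59.6%. The library with the region below the rest was Low Control replicate 2.

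Levels were high over most of the region, with single CpGs of low level among highly methylated neighbours and a few short blocks of lower mean. Over the 988 members, the mean level was 69.7% (SD 19.1 between CpGs) and the median was 76.1%. There were 403 members above 80%, which is 40.8% of them against 40.9% of all tested CpGs. There were 30 members below 20%, or 3.04% against 3.37% of all tested CpGs. The levels of the region were thus spread much like those of the table. The members covered little of the 203.1 kb: the median gap between neighbours was 13 bases, and with gaps of up to 1000 bases joined they formed 56 blocks that covered 18.0% of the length. Among the 41 blocks of 8 or more members, mean levels ran from 54.7% to 84.1%. Blocks of 3 or 4 members that begin at positions 82708009, 82740125 and 82825452 had lower means, of 41.3%, 47.2% and 49.2%. Those from 82743530 and 82713466 were also lower, at 52.1% and 53.4%, while a block of 4 from 82816463 had 67.3%. The 18 members of the first 10 kb had a mean of 53.4%. The nearest tested CpGs lay 3.84 Mb before the region and 2.69 Mb after it.

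**Figure D1:**
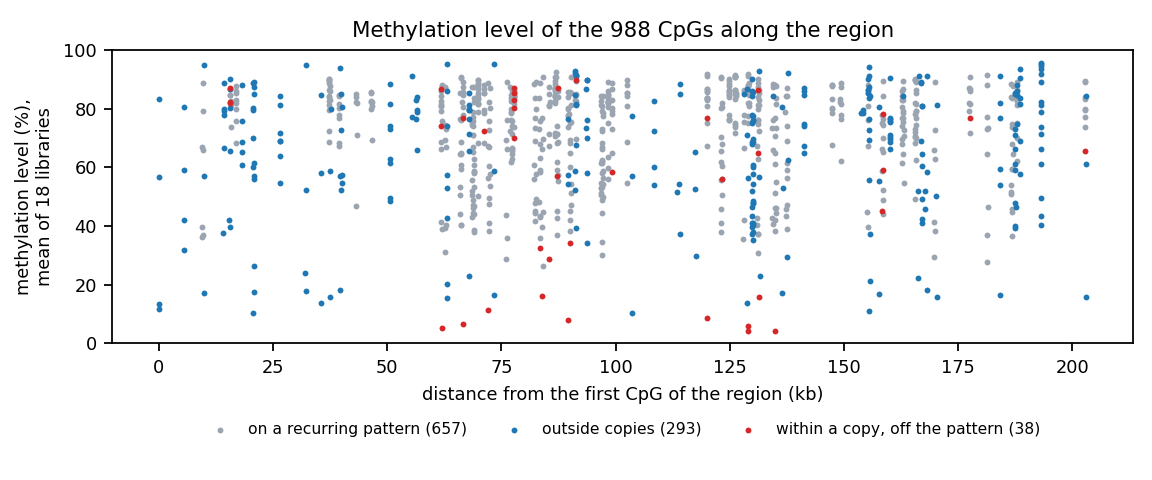
Mean methylation level over 18 libraries (vertical axis, %) of each of the 988 CpGs, by distance in kb from the first CpG of the region. The colours separate CpGs on a recurring spacing pattern (657), within a copy of one but off the pattern (38) and outside copies (293), and the CpGs below 20% are all of the latter kinds.

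The first member, at position 82708009, had a level of 56.7% over all libraries (50.8% to 66.2%), and the last, at 82911078, had 84.3% (81.6% to 87.8%). The highest level was 95.5%, at position 82901224, where every library was between 93.8% and 97.2%. The lowest was 4.06%, at 82842855, where libraries lay between 1.91% and 8.33%. These 4 CpGs were called in 0 of the 10 contrasts between treatments (limma, unadjusted p under 0.01). The libraries of any of these 4 CpGs did not overlap with those of another. The median SD between replicates of a member was 5.15 points, with SDs of up to 14.7 points, and the median of a CpG outside the region was 4.56 points.

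The same spacings of CpGs came back many times along the region, in both orientations. Each spacing pattern is named here by its span. A copy is a stretch in which at least 75% of the pattern's offsets on a single DNA strand were tested CpGs. The offsets of the other strand could be missing, so a copy need not be complete. The patterns were found from positions alone, after the file had been seen, and describe the order of CpGs and not the DNA sequence, since no bosTau8 genome was used here. Over the 5 patterns, 657 members (66.5%) lay on one, 38 lay within a copy but off its offsets, and 293 lay outside copies.

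The 362-base pattern had 13 copies in the region, of which 6 ran forward and 7 were mirrored, and 229 members. Another 156 copies were found in 95 other runs on 26 chromosomes. Its CpGs had a fixed profile of levels. The outer CpGs were high, with a mean of 87.9% ± 2.01 (SD, 7 copies) at offset 0 and 88.8% ± 2.99 (6 copies) at offset 361. Between them lay low CpGs, such as 39.7% ± 5.42 (8 copies) at offset 265, 47.7% ± 5.65 (8 copies) at offset 292 and 46.6% ± 6.95 (8 copies) at offset 228. Only 8 bases on from the CpG at offset 265, at offset 273, the mean was 62.4% ± 5.56 (7 copies). Of the variance in level among its members, 92.6% lay between offsets, and the SD between copies at the same offset was 4.60 points.

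The 276-base pattern was the most uniform of the 5 in this share, with 11 copies (3 forward, 8 mirrored) and 87 members in the region and 178 copies elsewhere. Its levels were 88.8% ± 1.58 at offset 76, 39.0% ± 2.11 at offset 36 and 41.9% ± 3.21 at offset 245, each over 11 copies. At offset 166 the mean was 30.0% ± 3.49 over 6 copies. Offsets accounted for 98.8% of the variance in level, and copies at the same offset differed with an SD of 2.40 points. The CpGs at offsets 36 and 76 of a copy thus differed far more than CpGs at the same offset in other copies of the region.

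The 121-base pattern was the most frequent, with 27 copies (20 forward, 7 mirrored), 270 members and 296 copies elsewhere in 139 runs on 29 chromosomes. It was highly methylated at each offset, from 68.9% ± 5.60 (16 copies) at offset 78 to 88.1% ± 2.02 (16 copies) at offset 0. Offsets accounted for 52.9% of the variance, less than in the other patterns, and the SD between copies was 5.01 points. Some copies stood apart at a single CpG: at offset 14, levels ran from 46.8% to 87.1% over 17 copies, and at offset 51 from 56.1% to 90.7% over 16. The 134-base pattern (4 copies, 38 members) and the 113-base pattern (3 copies, 33 members) were rarer and had 85.1% and 86.0% of their variance between offsets.

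**Figure D2:**
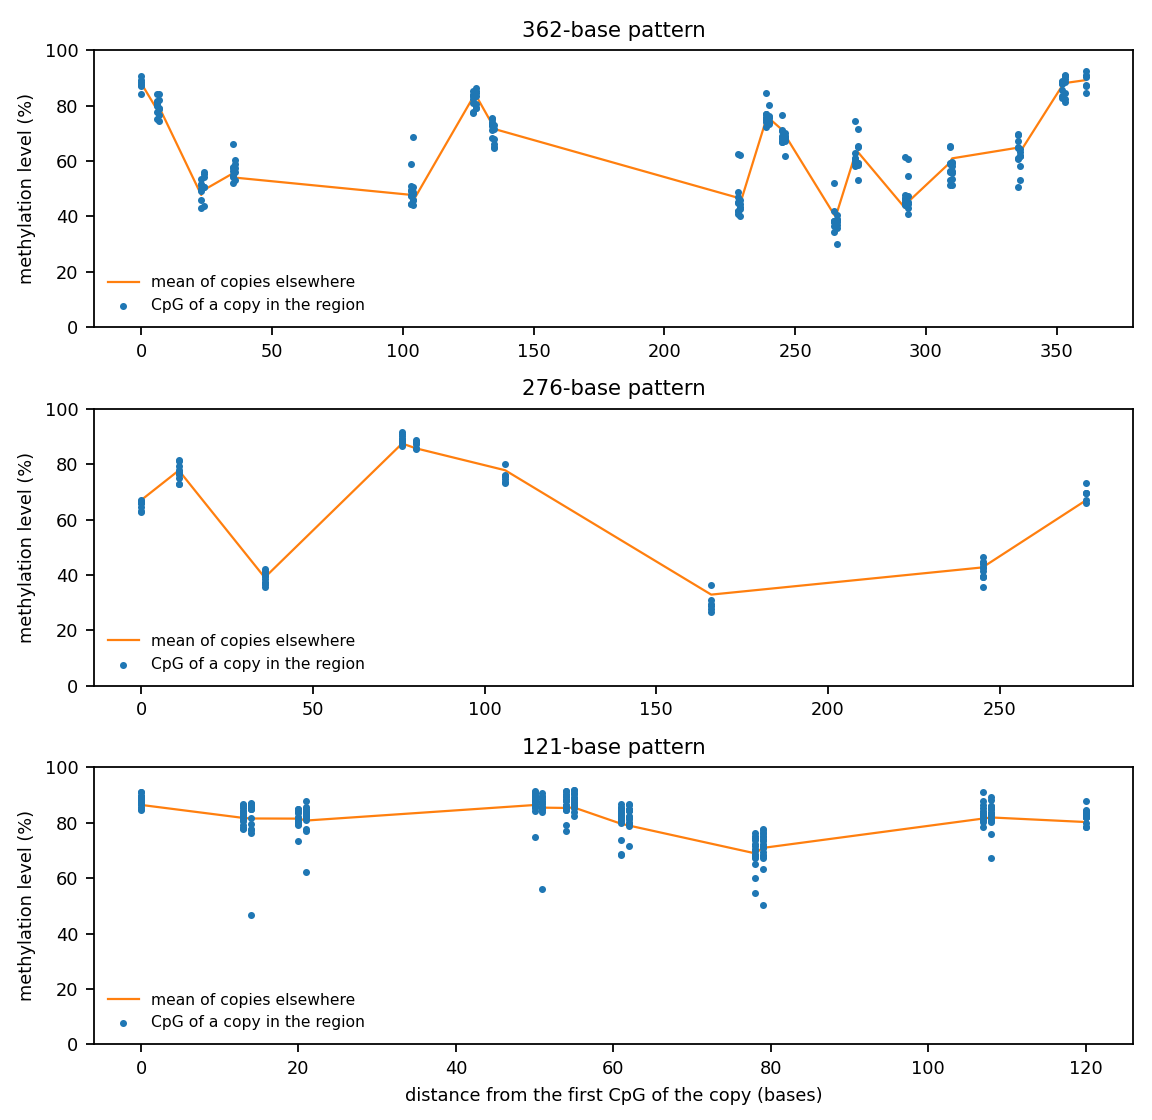
Methylation level (vertical axis, %) by distance from the first CpG of the copy (bases) for 3 patterns, with 1 point for each CpG of a copy in the region and a line for the mean of the copies elsewhere in the genome. The bands of points mostly take the course of the line. Single copies of the 121-base pattern lie far below it, down to 46.8% at offset 14, where the mean elsewhere is 81.6%. Single copies of the 362-base pattern lie far above it, such as 68.8% at offset 104, where the mean elsewhere is 45.6%. The 276-base pattern shows the narrowest bands, with an SD of 2.40 points between copies.

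Averaged over copies, the profile elsewhere in the genome was nearly the same. Over the offsets of a pattern, the mean level in the region and the mean level elsewhere had a Pearson correlation of 0.990 for the 362-base pattern (32 offsets), 0.983 for the 121-base pattern (16 offsets) and 0.997 for the 276-base pattern (9 offsets). The mean absolute difference was 1.71, 1.07 and 1.5 points. These are correlations across offsets, which share the libraries and the mapping and are not independent. At some offsets, single copies elsewhere were spread more widely. At offset 0 of the 121-base pattern they ran from 13.6% to 92.7% (86.5% ± 9.69, 165 copies), where the 16 of the region ran from 84.6% to 91.2%. At other offsets the region had the larger SD. At offset 104 of the 362-base pattern it was 8.43 points over 7 copies, against 5.10 points over 89 copies elsewhere. CpGs in copies with the same order of CpGs may come from near-identical sequence, whose reads can be placed at the wrong copy. Whether reads were exchanged between copies was not tested.

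Smaller sets of CpGs outside these copies recurred as well. In 6 groups of 3 CpGs, with offsets of 0, 8 and 39 bases (5 forward, 1 mirrored), the levels were 93.2% ± 1.75, 56.6% ± 2.44 and 19.2% ± 2.64 (SD, 6 groups). In 4 groups with offsets of 0, 52 and 83 bases, they were 79.6% ± 1.38, 14.9% ± 3.20 and 56.0% ± 2.49. In both sets the lowest CpG lay 31 bases from a CpG of intermediate level.

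No member on a pattern had a mean level below 20%. Of the 30 members below 20%, 10 lay within a copy but off its offsets and 20 lay outside copies. The members within a copy but off its offsets had a median of 65.2% and ran from 4.06% to 89.9%, and those on a pattern had a median of 77.9% and ran from 26.5% to 92.5%. The lowest member of the region was among them, at offset 321 of a 362-base copy.

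A CpG can be read on both DNA strands, and its C and its G then appear as neighbouring positions. There were 131 such pairs in the region. Their levels had a Pearson correlation of 0.862, and 119 pairs were within 10 points of each other. Only 3 pairs differed by over 20 points. The largest difference was at position 82828065, which had 8.70% while its neighbour had 76.9%, and the next was at 82863580, which had 72.7% while its neighbour had 11.1%. Once treatment means were removed, the median correlation of the libraries' deviations over these pairs was 0.04, against 0.28 for 251 pairs of members 2 to 10 bases apart and 0.03 for 108 pairs 31 to 99 bases apart. Outside the region these medians were 0.06, 0.25 and 0.06. A median over correlations of 18 libraries is given here as a description with no test.

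The mean level of the region differed little between treatments. Low Control had 70.3%, 67.7% and 67.8% in its 3 libraries, a mean of 68.6% ± 1.45 (SD, n = 3). Low ×2.5 had 70.5% ± 0.46 and Low ×5 had 70.5% ± 0.78. High Control had 70.3% ± 0.66, High ×2.5 had 69.5% ± 0.96 and High ×5 had 69.0% ± 0.83. Low Control replicates 2 and 3 were the lowest libraries of the region, while Low Control replicate 1 lay among the supplemented Low libraries. The order of the treatments was Low ×5, Low ×2.5, High Control, High ×2.5, High ×5 and Low Control, and each neighbouring pair overlapped in its libraries.

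The difference between Low ×5 and Low Control was 1.96 points in the region and 1.25 points in the other CpGs. Between High ×5 and High Control it was -1.24 and -0.90 points, and between High ×5 and Low ×5 it was -1.53 and -1.16 points. In the last 2 contrasts the libraries did not overlap, in the region and in the other CpGs alike. The mean over members is not tested. When each library was centred on its own median M-value, these differences were 0.04, -0.17 and 0.06 points in the region. The differences of the region's mean therefore moved with those of the whole table.

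**Figure D3:**
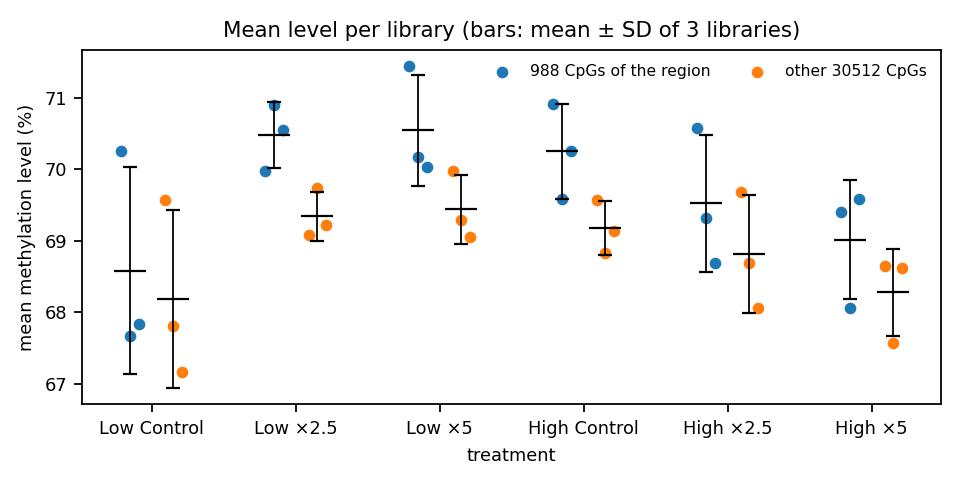
Mean methylation level per library (vertical axis, %, not starting at 0) of the 988 CpGs of the region and of the other 30512 CpGs, by treatment, with the mean ± SD of 3 libraries as bars. Low Control replicates 2 and 3 are the lowest of the region, at 67.7% and 67.8%, and both series of points move together between treatments.

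Differences of single CpGs were tested with limma on all 31500 CpGs, with 1 mean per treatment, and calls were made where the unadjusted p was below 0.01, the threshold of the study. Called CpGs are termed methylated if their mean was higher in the treatment named first, and demethylated if it was lower. At least 1 of the 10 contrasts called 113 of the 988 members, or 11.4%, where 9.68% of all tested CpGs were called. The share was 11.1% for the 657 members on a pattern and 12.1% for the other 331. After Benjamini-Hochberg adjustment over all CpGs, no member had an adjusted p-value under 0.05 in limma in any of the 10 contrasts, in the glucose effect averaged over EM levels or in the interaction of glucose with ×5, whereas 20 to 111 members per comparison were below an unadjusted p of 0.05 (2.02% to 11.2% of members, against 2.39% to 9.63% of all CpGs). The smallest adjusted p-value of a member was 0.201, for the interaction.

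In Low cells, 31 members were called for Low ×5 vs. Low Control, 26 methylated and 5 demethylated, which is 3.14% of members where 2.4% of all CpGs were called (1.78% methylated, 0.619% demethylated). The median log2 difference was 0.15 over members and 0.10 over all CpGs. With libraries centred, 11 were methylated and 9 demethylated. The number was 13 with the 6 libraries of the contrast alone, 16 without replicate 2 and 14 without replicate 3. For Low ×2.5 vs. Low Control, 21 members were called (19 methylated, 2 demethylated), or 2.13% against 2.0% of all CpGs (1.53% and 0.47%), and with libraries centred the split was 9 and 7. It was 34 without replicate 1 and 12 without replicate 3. Both contrasts share the 3 Low Control libraries. For Low ×5 vs. Low ×2.5, 5 members were called, 1 methylated and 4 demethylated, 0.506% where 0.371% of all CpGs were called (0.229% and 0.143%), and with libraries centred 0 were methylated and 4 demethylated. With the 6 libraries of that contrast alone, 4 were methylated and 4 demethylated.

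For Low ×5 vs. Low Control, the smallest p-value of a member belonged to the CpG at position 82849197. Its levels were 93.9%, 92.3% and 92.1% in Low ×5 and 85.0%, 71.4% and 76.5% in Low Control. All Low ×5 libraries lay above all Low Control libraries. Its M-values differed by 1.85 on the log2 scale (SE 0.41, unadjusted p = 0.000334 and adjusted p = 0.29, limma). Without replicate 3 the unadjusted p-value was 0.0115, and the CpG was no longer called.

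For Low ×2.5 vs. Low Control, and for Low ×5 vs. Low ×2.5, the smallest p-value belonged to the CpG at position 82764457. It had 89.7%, 90.9% and 84.2% in Low ×2.5, 78.1%, 76.5% and 64.7% in Low Control and 73.8%, 80.4% and 74.4% in Low ×5. Low ×2.5 thus stood above both other Low treatments, which overlapped. Its log2 difference from Low Control was 1.48 (SE 0.30, adjusted p = 0.378, limma), and the unadjusted p-value was 0.00426 or less in every alternative that was run. The log2 difference of Low ×5 from Low ×2.5 was -1.26 (SE 0.30, unadjusted p = 0.000781, adjusted p = 1.0, limma) and was not called without replicate 1 (unadjusted p = 0.0306).

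In High cells, more of the called members were demethylated than methylated. For High ×5 vs. High Control, 4 members were methylated and 12 demethylated, a total of 16 or 1.62% where 1.37% of all CpGs were called (0.292% and 1.08%). For High ×2.5 vs. High Control, the numbers were 3 and 11, or 1.42% of members where 1.02% of all CpGs were called (0.343% and 0.676%). These contrasts share the High Control libraries. Between High ×5 and High ×2.5, 18 members were called, with 8 higher and 10 lower in High ×5, which is 1.82% of members where 1.47% of all CpGs were called (0.454% and 1.02%). With libraries centred, the splits were 4 and 9, 3 and 9, and 8 and 8, so that the last was even, as it was without replicate 1 (6 and 6).

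The CpG at position 82791475, at offset 274 of a 362-base copy, had the smallest p-value for High ×5 vs. High Control. It had 57.1%, 52.3% and 47.1% in High ×5 and 71.3%, 78.4% and 63.0% in High Control, with no overlap. Its M-value differed by -1.19 (SE 0.32, adjusted p = 0.531, limma). It was not called without replicate 1 (unadjusted p = 0.0117) or without replicate 2 (unadjusted p = 0.0475). At the same offset and strand in 6 other copies of the region, the difference ran from -0.92 to 0.33, and 0 of them were called.

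For High ×2.5 vs. High Control the smallest p-value belonged to the CpG at 82751299 of a 121-base copy, with 62.9%, 58.8% and 61.1% in High ×2.5 and 80.0%, 74.1% and 82.7% in High Control. High ×5, at 79.2%, 75.0% and 71.4%, lay again above High ×2.5. The log2 difference from High Control was -1.28 (SE 0.27, adjusted p = 0.693, limma), and the unadjusted p-value was 0.00745 or less in every alternative. The 18 other copies had differences of -0.58 to 0.52 at this offset, with a median of 0.01, and none was called.

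For High ×5 vs. High ×2.5, the CpG at 82769848 of a 276-base copy had 69.7%, 80.8% and 72.5% in High ×5 and 88.4%, 88.6% and 88.5% in High ×2.5. The High ×2.5 libraries were close to each other and all above those of High ×5. The log2 difference was -1.38 (SE 0.31, adjusted p = 0.59, limma), and the CpG was not called without replicate 1 (unadjusted p = 0.0146). Of 10 other copies with this offset, 7 had a difference of the same sign, with a median of -0.13 over the 10, and 0 were called.

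**Figure D4:**
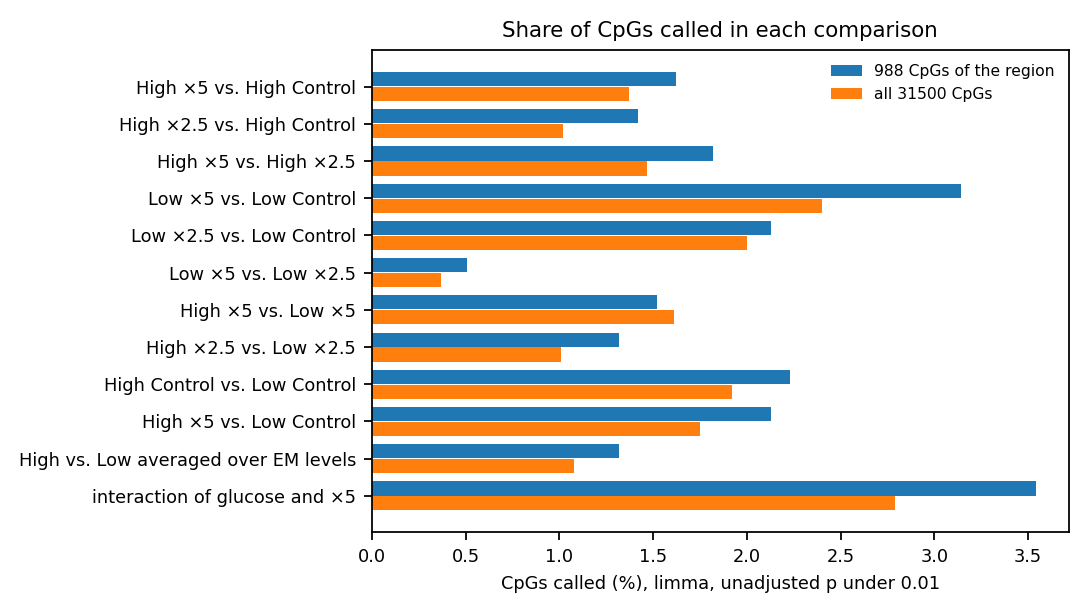
Share of CpGs called (horizontal axis, %, limma, unadjusted p under 0.01) among the 988 CpGs of the region and among all 31500 tested CpGs in each of 12 comparisons. The shares of the region run from 0.506% to 3.54% and those of all CpGs from 0.371% to 2.79%, in a like order.

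Between glucose levels, the direction of the called members differed with the EM level. For High Control vs. Low Control, 18 members were methylated and 4 demethylated, 2.23% of members where 1.92% of all CpGs were called (1.38% and 0.543%). For High ×5 vs. Low ×5, 1 was methylated and 14 were demethylated, 1.52% where 1.61% of all CpGs were called (0.305% and 1.3%). For High ×2.5 vs. Low ×2.5, 1 was methylated and 12 were demethylated, 1.32% where 1.01% of all CpGs were called (0.308% and 0.698%). With libraries centred these splits were 10 and 9, 7 and 8, and 2 and 8, so that the excess of one direction in the first and second of these contrasts was not kept. The numbers called were 34 for the first without replicate 1, 9 for the second without replicate 1, and 8 for the third without replicate 2 or 3. Averaged over EM levels, 7 members were higher and 6 lower in High cells, 1.32% of members where 1.08% of all CpGs were called (0.397% and 0.686%), and with libraries centred 10 and 4. The lower ones were the more numerous without replicate 1 (6 and 7), 2 (4 and 7) or 3 (7 and 11).

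The smallest p-value for High Control vs. Low Control was at position 82774547, in a 121-base copy. Its levels were 95.5%, 94.1% and 88.6% in High Control and 76.3%, 81.0% and 66.7% in Low Control. They differed by 2.19 on the log2 scale (SE 0.46, adjusted p = 0.367, limma), with an unadjusted p-value of 0.005 or less in every alternative. Of 17 other copies with this offset, 13 had a difference of the same sign, with a median of 0.21, and 0 were called.

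The smallest p-value for High ×5 vs. Low ×5 was at position 82849190, which is 7 bases before the CpG named above for Low ×5. It had 80.0%, 64.3% and 75.8% in High ×5 and 92.9%, 87.2% and 92.1% in Low ×5. All High ×5 libraries were the lower ones. The log2 difference was -1.85 (SE 0.36, unadjusted p = 0.000104, adjusted p = 0.326, limma), and the unadjusted p-value was 0.00564 or less in every alternative. This CpG and the one at 82849197 had the same level in some libraries. It was 86.0% in Low ×2.5 replicate 2 and 89.7% in Low ×2.5 replicate 3. Whether both CpGs rest on the same reads was not tested.

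For High ×2.5 vs. Low ×2.5 it was at 82779178, with 81.8%, 82.6% and 85.7% in High ×2.5 and 92.3%, 96.0% and 95.5% in Low ×2.5. On the log2 scale this was a difference of -1.85 (SE 0.44, adjusted p = 0.945, limma), called in every alternative. The CpG lay in a 121-base copy. Of 14 other copies with its offset, 9 had a difference of the same sign, and 0 were called. For the glucose effect averaged over EM levels the smallest p-value was at 82769766. The means there were 84.0%, 84.7% and 86.1% in the High treatments and 75.0%, 78.3% and 77.9% in the Low treatments. The log2 difference of 0.76 (SE 0.17, limma, adjusted p = 0.814) was called in every alternative. In the other 16 copies with this offset of the 121-base pattern, the median difference was -0.01 and 0 were called.

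With both factors changed, High ×5 vs. Low Control, 16 members were methylated and 5 demethylated, 2.13% of members where 1.75% of all CpGs were called (0.94% and 0.813%), and with libraries centred 15 and 8. With the 6 libraries of the contrast alone, 9 were called. Without replicate 3 the excess turned, with 11 methylated and 14 demethylated. The CpG at 82895889, in a 134-base copy, had the smallest p-value. Its levels were 86.5%, 90.6% and 82.1% in High ×5 and 75.9%, 73.9% and 57.9% in Low Control. Low Control was the lower treatment, by 1.51 on the log2 scale (SE 0.38, adjusted p = 0.475, limma), and it was not called without replicate 3 (unadjusted p = 0.0127). The CpG was called in 4 contrasts, all of which compare a treatment with Low Control. For High ×5 vs. Low Control, 1 of 3 other copies with its offset had a difference of the same sign, and 0 were called.

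The interaction tests whether the difference between ×5 and Control was unlike in High and Low cells. It called 35 members, 29 of which had a lower and 6 a higher difference in High cells, 3.54% of members where 2.79% of all CpGs were called (2.23% and 0.568%). With libraries centred, the numbers were 17 and 10, and without replicate 2 a total of 23 was called. The median interaction was -0.23 over members and -0.18 over all CpGs. The smallest p-value was at position 82722214, which was also called in 4 contrasts. It had 79.4%, 70.9% and 73.3% in Low Control and 81.1%, 82.4% and 87.3% in Low ×5. In High cells the order was the opposite, with 81.2%, 82.3% and 86.8% in High Control and 73.9%, 70.0% and 78.3% in High ×5. The libraries did not overlap in either glucose level. The interaction was -1.63 (SE 0.36, unadjusted p = 0.000328, adjusted p = 0.201, limma), and it was not called without replicate 2 (unadjusted p = 0.0134).

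Some members were called repeatedly. At least 2 of the 10 contrasts called 46 members, or 4.66% of them where 3.52% of all CpGs were, and at least 4 called 4 members, or 0.405% of members where 0.416% of all CpGs were. Beside the 2 already described, these were at 82799259 and 82799300, which lie 41 bases apart in a 121-base copy. At 82799259 the means were 73.9% in Low Control and between 85.8% and 87.9% in the other treatments, and all 4 calls were against Low Control, whose libraries had 78.9%, 65.5% and 77.3%. At 82799300, called in 5 contrasts, the low treatments were Low Control, at 73.2%, 82.8% and 72.7%, and High ×2.5, at 75.9%, 73.3% and 72.7%, with the other means between 82.9% and 86.5%. Contrasts that share a treatment are not independent. Each of these calls was lost when at least 1 of the replicate numbers was left out, and some were also lost with libraries centred, among them 3 of the 4 at 82799259.

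**Figure D5:**
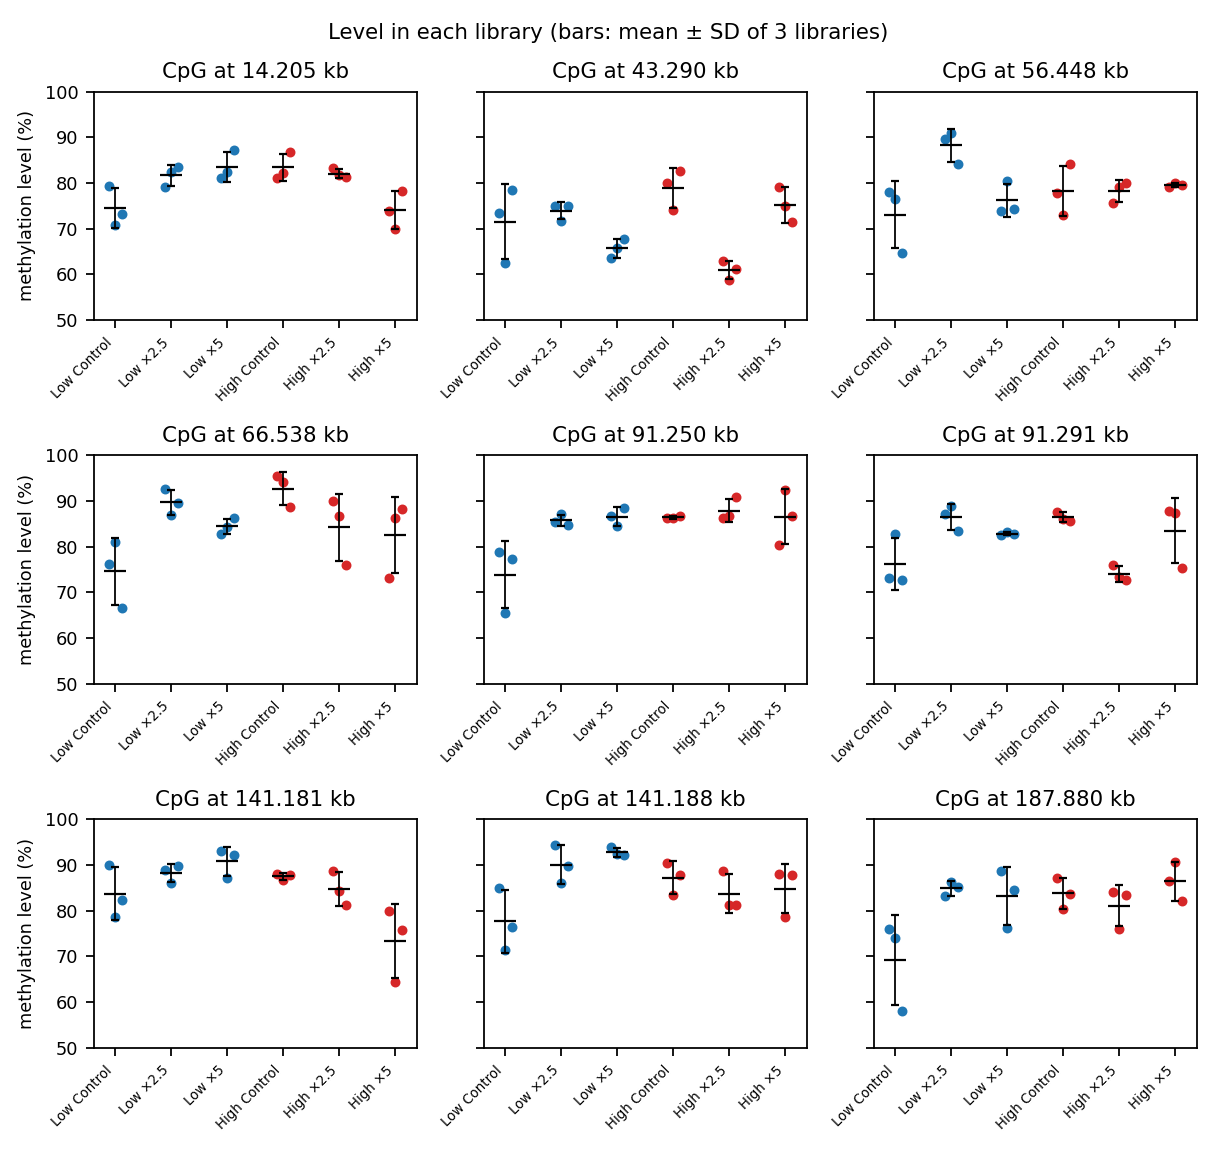
Methylation level (vertical axis, %, 50 to 100) in each library by treatment for 9 CpGs of the region, each titled by its distance from the first CpG of the region, with Low cells in blue, High cells in red and the mean ± SD of 3 libraries as bars. Low Control is the lowest treatment at 91.250 kb, with a mean of 73.9%, and at 187.880 kb, with a mean of 69.2%. It is also the lowest at positions 82764457 (73.1%), 82774547 (74.6%) and 82849197 (77.6%). In the remaining panels another treatment has the lowest mean.

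Neighbouring CpGs were also averaged into clusters of at least 3 CpGs less than 100 bases apart, of which the region holds 96 with 970 members. Each of these 96 clusters was tested in 10 contrasts, in limma over the 2663 clusters of the table, and 22 tests were called. Of these, 17 were higher and 5 lower in the first treatment. Over all clusters, 490 of 26630 such tests were called, or 1.84%, and their split by direction was not counted. The excess of higher calls was not kept without replicate 2, with 8 higher and 8 lower, or without replicate 3, with 7 higher and 9 lower. For Low ×5 vs. Low Control, 6 of the 96 clusters were called, or 6.25% where 4.09% of all clusters were. For Low ×2.5 vs. Low Control it was 5 (5.21% where 2.78% were), for High Control vs. Low Control 4 (4.17% where 2.89% were) and for High ×5 vs. Low Control 2 (2.08% where 1.46% were). All these were higher than Low Control. The glucose effect averaged over EM levels, which includes Low Control, called 0 (where 0.638% of all clusters were). Of the contrasts without Low Control, Low ×5 vs. Low ×2.5 called 0 (0.263%). The others called 1 cluster each, lower in the first treatment, where 1.99% of all clusters were called for High ×5 vs. High Control, 0.939% for High ×2.5 vs. High Control, 0.789% for High ×5 vs. High ×2.5, 2.44% for High ×5 vs. Low ×5 and 0.751% for High ×2.5 vs. Low ×2.5. The interaction called 8, all lower, or 8.33% where 6.53% of all clusters were. No cluster of the region had an adjusted p-value under 0.05 in limma in any comparison, while between 2 and 23 clusters were under 0.05 before adjustment, or 2.08% to 24.0% of the region's clusters against 1.92% to 18.8% of all. Over all clusters, 6 passed after adjustment for the interaction, 2 for Low ×5 vs. Low Control, and 1 each for Low ×2.5 vs. Low Control, High Control vs. Low Control and High ×5 vs. High Control. With replicate 1 of every treatment left out, the number of called tests over the 10 contrasts was 45.

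The cluster of 3 CpGs between positions 82874286 and 82874325 had the smallest p-value of the region in 6 comparisons, among them all 4 contrasts with Low Control. Its mean level was 48.8%, 47.6% and 43.1% in the Low Control libraries and between 50.9% and 61.4% in all other libraries. The log2 difference was 0.89 for High Control (SE 0.20, adjusted p = 0.186, limma), 0.85 for Low ×5 (SE 0.20, adjusted p = 0.108) and 0.78 for Low ×2.5 (SE 0.20, adjusted p = 0.238). None of these 3 was called without replicate 2, with unadjusted p-values of 0.0233, 0.018 and 0.0266. The middle CpG, at 82874317, carried the widest range of treatment means of any member, 25.8 points. It had 34.5%, 39.3% and 29.4% in Low Control, a mean of 34.4%, and treatment means of 50.4% to 60.2% in the others, and it was named after its values were seen. At 82874286, 31 bases before, all treatment means lay between 20.0% and 25.2%, and at 82874325, 8 bases after, Low Control had 85.1% ± 8.39 and the others 90.4% to 94.4%. These 3 CpGs form one of the recurring groups with the offsets 0, 8 and 39 in mirrored order.

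Other clusters had smaller differences. The cluster between 82857228 and 82857334 (8 CpGs) had 82.6%, 81.5% and 85.0% in Low ×5 and 79.8%, 77.6% and 78.4% in High ×5, or -0.45 on the log2 scale for High ×5 vs. Low ×5 (SE 0.15, adjusted p = 0.375, limma). It also had the smallest p-value for Low ×5 vs. Low ×2.5, where it was not called (log2 difference 0.33, SE 0.15, unadjusted p = 0.0376, limma). Its lowest treatment was Low Control, at 76.9% ± 3.81. Low ×5 vs. Low Control was called (log2 difference 0.60, SE 0.15, unadjusted p = 0.0008, adjusted p = 0.109, limma). The interaction was called as well (-0.79, SE 0.21, unadjusted p = 0.00148, adjusted p = 0.115, limma). Both of these calls were lost without replicate 2 and without replicate 3. The cluster between 82785658 and 82785765 (15 CpGs) had a mean of 80.1% ± 2.83 in High ×5 and 85.1% ± 0.79 in High Control, or -0.48 on the log2 scale (SE 0.16, adjusted p = 0.498, limma). The cluster between 82734559 and 82734648 (7 CpGs) had 68.9% ± 1.03 in High ×2.5 and 73.6% ± 2.14 in High Control (log2 difference -0.40, SE 0.13, adjusted p = 0.981, limma). For High ×5 vs. High ×2.5, the cluster between 82845427 and 82845671 (12 CpGs) had 60.3% ± 1.29 and 65.0% ± 0.56 (log2 difference -0.34, SE 0.11, adjusted p = 0.862, limma). For High ×2.5 vs. Low ×2.5, the cluster between 82877701 and 82877976 (7 CpGs) had 53.6% ± 4.12 and 60.0% ± 2.93 (log2 difference -0.49, SE 0.14, adjusted p = 0.941, limma). Each of the 5 calls in which one of these clusters had the smallest p-value was lost when at least 1 replicate number was left out. With libraries centred, 4 of them were lost as well, at unadjusted p-values of 0.0164 (82857228), 0.0112 (82734559), 0.0212 (82845427) and 0.0128 (82877701) in limma.

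The mean levels of the patterns by treatment differed by a few points, and are given with no test. The widest span was in the 113-base pattern, with 72.5% ± 1.96 in Low Control and 77.5% ± 2.65 in Low ×2.5, where the libraries did not overlap. The 134-base pattern had 75.4% ± 2.84 in Low Control and 79.2% ± 0.45 in Low ×5. Members of the 362-base pattern had 63.0% ± 1.03 in Low Control, 65.0% ± 0.82 in Low ×5 and 63.0% ± 0.43 in High ×5. Members of the 276-base pattern had 63.5% ± 0.53 in Low Control, 63.5% ± 1.14 in Low ×5 and 62.0% ± 1.24 in High ×5. Members of the 121-base pattern had 80.7% ± 2.08 in Low Control, 82.9% ± 0.90 in Low ×5 and 81.1% ± 1.23 in High ×5. Over the 988 members, the median range of the 6 treatment means was 7.77 points, and over all tested CpGs it was 6.77 points. In the 276-base pattern, some differences between offsets, such as 88.8% and 39.0% for CpGs 40 bases apart, were far wider than these medians. The SD between offsets was 21.1 points in that pattern, but 5.29 points in the 121-base pattern. The widest range of treatment means of a single member was 25.8 points.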

How the data were processed

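The authors prepared RRBS libraries from EBTr cells. After trimming (Cutadapt), Bismark 0.22.3 was used for alignment against bosTau8 and for methylation calls, and CpG positions were kept and filtered on coverage. The deposited table holds log2 values, 1 M-value per CpG and library, with any offset not given in the sources used here. An offset pulls values from few reads toward 0, and the depth of each value was not worked out. The authors' own contrasts used edgeR on reads.

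Here, levels in percent were computed from the M-values. Because no reads were used, limma 3.58.1 in R 4.3.3 was fitted to all 31500 CpGs and 18 libraries, with 1 mean per treatment, two-sided, and to the mean M-value of 2663 clusters. In all, 10 contrasts, High against Low over all EM levels and the interaction at ×5 were tested, with Benjamini-Hochberg adjustment over all CpGs or clusters. Contrast 6 of the methods was read as Low ×5 vs. Low ×2.5. The limma fit of single CpGs was tested on simulated data, with independent noise for each CpG and a shift added in Low ×5. The fit of clusters, the interaction and the search for patterns were not tested in this way. The text names, in each comparison, the member and cluster with the smallest p-value, members called in at least 4 contrasts, the lowest, highest, first and last member, and the gene assigned to the region. The members and lists were chosen with earlier results of these data known, and the spacing patterns after seeing the positions. Alternatives were the libraries of the compared treatments alone, the replicate number as a block, levels as fractions, median-centred libraries, robust and trended eBayes, and leaving out each replicate number. Python 3.11.15 with numpy 2.4.6, pandas 2.3.3 and matplotlib 3.10.9 gave the other values and figures.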

Additional observations from a re-analysis of the deposited data

How the results depend on the processing

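With the libraries of the compared treatments alone, 13 members were called for Low ×5 vs. Low Control (31 with all libraries), 8 for Low ×5 vs. Low ×2.5 (5) and 9 for High ×5 vs. Low Control (21). With libraries centred on their median, 20 were called for Low ×5 vs. Low Control, and the difference of the region's mean was -0.165 points for High ×5 vs. High Control, 0.0387 for Low ×5 vs. Low Control, 0.17 for Low ×2.5 vs. Low Control, 0.0622 for High ×5 vs. Low ×5 and 0.266 for High Control vs. Low Control. Leaving out each replicate number gave 14 to 39 called members for Low ×5 vs. Low Control, 12 to 34 for Low ×2.5 vs. Low Control, 9 to 21 for High ×5 vs. Low ×5, 8 to 13 for High ×2.5 vs. Low ×2.5, 16 to 34 for High Control vs. Low Control and 23 to 33 for the interaction. The called tests of clusters numbered 16 to 45, and the mean difference for Low ×2.5 vs. Low Control was 1.22 to 2.98 points. The cause was not tested. The other numbers of called members stayed within 1.5 times. Libraries with the same replicate number were hardly more alike than others. The 45 pairs with the same number had a mean correlation of deviations of 0.000636 (-0.106 to 0.115). The 90 pairs with different numbers had a mean of -0.00022 (-0.0967 to 0.0974). Of 18 libraries, 8 correlated best with a library of their own number. With the replicate number as a block, 28 members were called for Low ×5 vs. Low Control, 24 for Low ×2.5 vs. Low Control and 31 for the interaction, and no count moved by over 1.5 times. The block in the fit of clusters, which was chosen after seeing the data, gave 24 called tests against 22, but the calls of the clusters from 82785658 (unadjusted p = 0.0101, limma), from 82845427 (0.0105) and from 82874286 for High ×5 vs. Low Control (0.0124) were lost. In the comparisons for which a member or cluster was named, no direction was reversed in any alternative run.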
